A study of Mus musculus with 20 samples.

Results

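The genes described here are 35 ribosome biogenesis factors, named by symbol and sorted into 6 groups by their role in making ribosomes. A probe set that names 1 gene was found for 34 of them, among 18194 genes on the array, and where a gene had several, the one with the highest mean over the 20 arrays was used. The exception was Npm3, a chaperone of the nucleoplasmin family, which was not measured here.

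Ribosomes are assembled in the nucleolus, where RNA polymerase I transcribes ribosomal DNA into one long precursor RNA. Small nucleolar ribonucleoproteins (snoRNPs) guide its methylation (box C/D) and pseudouridylation (box H/ACA), the U3 snoRNP starts its cleavage, and separate sets of factors then mature the small and the large subunit. Growing and dividing cells make ribosomes at a high rate, and the transcription factor MYC, which binds the E-box CACGTG, is a known activator of many of the genes involved.

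Total RNA of C57BL/6 mouse cells was hybridised to Affymetrix Mouse 430 2.0 arrays, 2 for each of 10 groups, and values are log2 probe set intensities. Dendritic cells of the conventional kind (cDC, specialised in antigen presentation) and of the plasmacytoid kind (pDC, known for type I interferon) were grown from amplified bone marrow progenitors. The common dendritic cell progenitor (CDP) and the multipotent progenitor (MPP) were amplified from bone marrow in culture, and 1 further group, in vivo CDP, was isolated directly from bone marrow. In the other series, the samples were amplified CDP without treatment (0 h) and after 4, 8, 12 or 24 h with the cytokine TGF-β1, whose dose the sources used here do not state. The series title asks whether TGF-β1 speeds the differentiation of CDP and directs it towards cDC. The labels give no sort, purity or number of mice, and do not tie replicates to separate cultures or animals, so each p-value reflects the spread between arrays, which may be technical.

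Labelling used a one-cycle kit for cDC, pDC, CDP and MPP (1 µg of RNA) and a 3′ IVT kit for TGF-β1 samples (250 ng) and in vivo CDP (50 ng), whose RNA was extracted with a different kit. The median value of an array was 2.46 to 2.52 for the first 10 arrays and 5.29 to 5.36 for the TGF-β1 series, so levels are compared only within each of these sets. Against CDP, cDC were higher in 9 of 9 cDC markers and pDC in 7 of 8 measured pDC markers. In each list 6 markers had a group wholly under a log2 value of 5, taken here as not above background, so the median differences are at least 5.14 and 6.57 (values under 5 set to 5). The remaining pDC marker, Klk1, was lower in pDC (adjusted p = 0.00668). Each cell type also rose in markers of the other, with 6 of 8 pDC markers higher and 1 lower in cDC, and 5 of 9 cDC markers higher in pDC. Set against each other, cDC were higher in 8 of 9 cDC markers and lower in 7 of 8 pDC markers. Bulk RNA does not tell fewer cells of a type from less RNA per cell.

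The 250 bases upstream of the annotated start were taken from RefSeq (build GRCm38.p6) for 30 of the 35 genes. They are shown for both genes with an E-box CACGTG, printed in capitals, and for 2 genes that stood out in pDC below. Sequences run 5′ to 3′ on the strand of the gene.
Imp4 (chr1:34439579-34439828, plus strand): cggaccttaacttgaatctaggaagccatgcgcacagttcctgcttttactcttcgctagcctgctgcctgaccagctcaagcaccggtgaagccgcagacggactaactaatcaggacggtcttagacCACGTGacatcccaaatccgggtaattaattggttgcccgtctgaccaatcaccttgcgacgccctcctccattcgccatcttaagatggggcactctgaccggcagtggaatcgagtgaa
Nop2 (chr6:125131633-125131882, plus strand): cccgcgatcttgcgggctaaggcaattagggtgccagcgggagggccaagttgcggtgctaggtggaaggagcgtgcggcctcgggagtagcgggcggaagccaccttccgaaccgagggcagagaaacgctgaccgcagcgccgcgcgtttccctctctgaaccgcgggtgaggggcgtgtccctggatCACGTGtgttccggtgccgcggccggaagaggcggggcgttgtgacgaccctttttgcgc
Polr1b (chr2:129100746-129100995, plus strand): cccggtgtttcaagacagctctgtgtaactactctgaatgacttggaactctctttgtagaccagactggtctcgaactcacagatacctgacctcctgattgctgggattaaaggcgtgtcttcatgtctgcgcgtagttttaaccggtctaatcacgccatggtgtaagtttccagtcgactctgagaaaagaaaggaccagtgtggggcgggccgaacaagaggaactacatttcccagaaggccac
Wdr12 (chr1:60098501-60098750, minus strand): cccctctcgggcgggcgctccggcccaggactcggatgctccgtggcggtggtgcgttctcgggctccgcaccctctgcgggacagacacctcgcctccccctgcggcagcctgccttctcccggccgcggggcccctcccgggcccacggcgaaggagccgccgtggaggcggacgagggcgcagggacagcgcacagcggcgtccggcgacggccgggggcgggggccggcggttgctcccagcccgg
The motif CACGTG, which reads the same on both strands, began 121 bases before the start of Imp4 and 60 bases before that of Nop2. It was found in 2 of the 30 windows (6.7%), against 1634 of 27025 windows over all genes (6.0%). The window is short and a match is only a match of letters.

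Ribosome biogenesis factors were lower in both kinds of dendritic cell than in cultured CDP. Of the 33 genes that exceeded a log2 value of 5 on at least 2 arrays, 29 fell in cDC (limma, adjusted p under 0.05), where 29.3% of all genes tested fell, and 31 fell in pDC, where 31.6% of all genes fell. None rose in either, where 18.7% and 21.7% of all genes did. The median difference was -1.27 in cDC, against -0.16 over all genes, and -1.62 in pDC, against -0.14 over all genes. For all 33 genes both arrays of cDC lay below both arrays of CDP, and the same held for pDC, which was so for 44.8% of all genes in each comparison. Both comparisons share the 2 CDP arrays. The 3′ probe set of the beta-actin control exceeded its 5′ probe set by 0.69 and 0.84 in cDC and by 0.84 and 0.94 in pDC, against 1.23 and 2.11 in CDP, and the part of this in the results was not tested.

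**Figure D1:**
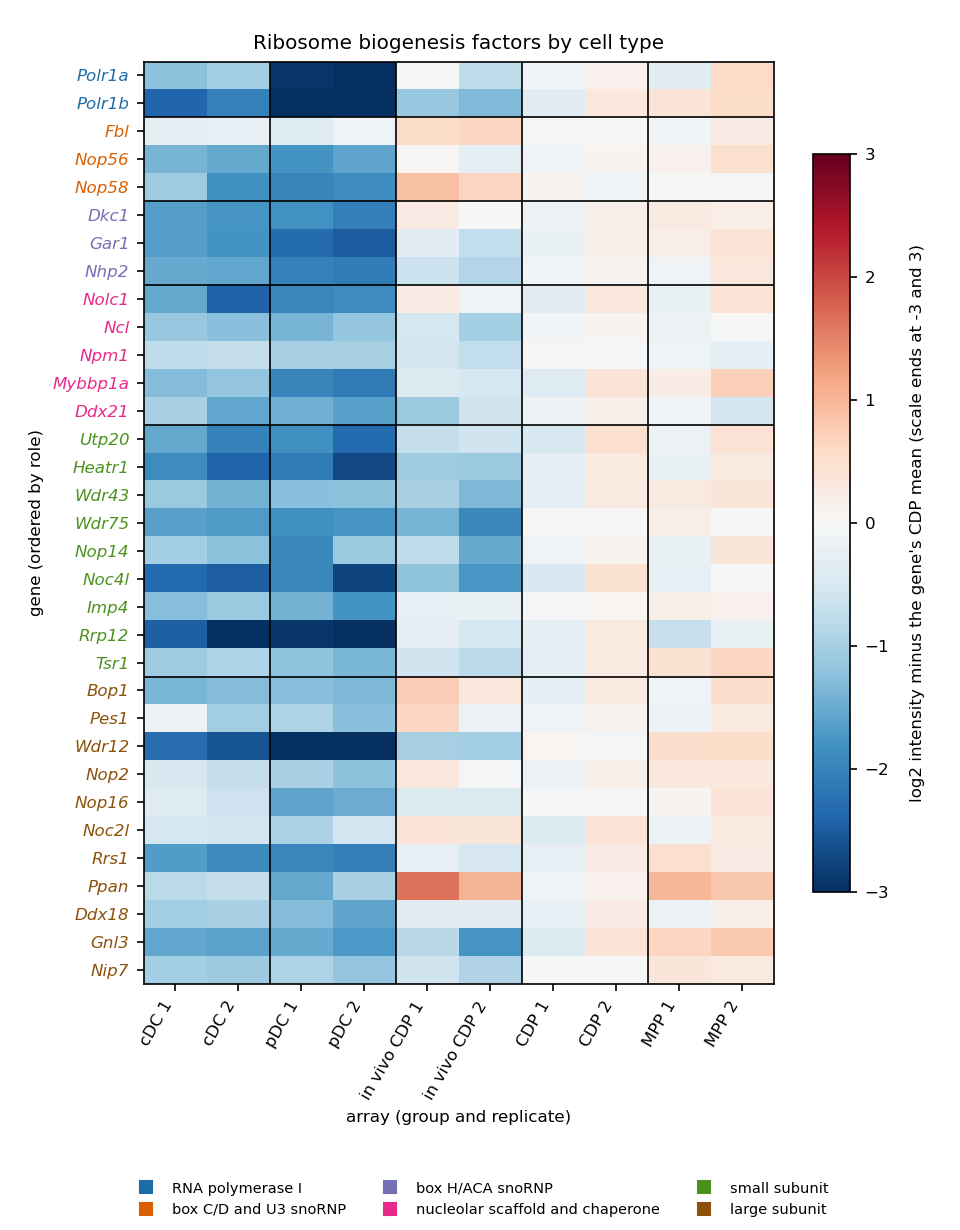
Colour gives the log2 intensity of each of 33 genes (rows, ordered and coloured by role) on each of 10 arrays (columns) minus the mean of that gene over the 2 CDP arrays. The cDC and pDC columns are below 0 for each gene, from a mean of -0.25 for Fbl to -4.08 for Wdr12, both in pDC, while in vivo CDP and MPP hold both signs. The colour scale ends short of the largest differences. Polr1a and Polr1b in pDC and Rrp12 in cDC and pDC lay under 5, which gives only bounds.

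RNA polymerase I was represented by Polr1a, its largest subunit, and Polr1b, its second largest, which together form the catalytic centre. Polr1b read 5.67 and 6.02 in cDC and 4.65 and 4.49 in pDC, against 7.72 and 8.37 in CDP. The 3 groups did not overlap, and pDC lay below cDC. The difference from CDP was -2.20 in cDC (SE 0.25, 4.58-fold lower, adjusted p = 0.000796). In pDC both arrays lay under 5, so Polr1b was at least 8.25-fold lower there (difference of deposited values -3.48, SE 0.25, adjusted p = 9.26e-05). Polr1a read 6.34 and 6.54 in cDC and 4.65 and 4.20 in pDC, against 7.44 and 7.71 in CDP. It was 2.19-fold lower in cDC (adjusted p = 0.0273) and at least 5.95-fold lower in pDC (adjusted p = 0.000362).

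The box C/D proteins did not move as one. Fibrillarin (Fbl), the methyltransferase of these particles, read 11.38 and 11.44 in cDC and 11.29 and 11.55 in pDC, against 11.67 on both CDP arrays. Its arrays did not overlap with those of CDP, yet the differences of -0.26 in cDC and -0.25 in pDC (SE 0.19 each) did not pass the test (adjusted p = 0.28 and 0.289). Nop58, a core protein of the same particles, read 9.34 and 8.57 in cDC and 8.44 and 8.51 in pDC, against 10.50 and 10.31 in CDP. It fell by 1.45 in cDC (SE 0.26, adjusted p = 0.00436) and by 1.93 in pDC (SE 0.26, adjusted p = 0.00103). Its partner Nop56 fell by 1.46 in cDC and by 1.69 in pDC. Rrp9, a protein of the U3 snoRNP, lay under 5 on all 10 arrays of these groups and was not tested.

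The box H/ACA proteins fell together in both cell types. They are Dkc1, the pseudouridine synthase, and its partners Gar1 and Nhp2. Gar1 read 8.98 and 8.84 in cDC and 8.32 and 8.12 in pDC, against 10.42 and 10.83 in CDP. The 3 groups were separate, with pDC lowest, and the difference from CDP was -1.72 in cDC (SE 0.20, adjusted p = 0.000905) and -2.40 in pDC (SE 0.20, adjusted p = 0.000162). The differences of Dkc1 and Nhp2 were -1.71 and -1.54 in cDC and -1.93 and -2.07 in pDC.

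All 5 nucleolar scaffold proteins and chaperones fell in cDC and in pDC. Mybbp1a, a nucleolar protein that binds transcription factors, averaged 9.94 ± 0.08 in cDC and 9.13 ± 0.08 in pDC, against 11.18 ± 0.55 in CDP (SD, n = 2 each), and no groups overlapped. It was 2.36-fold lower in cDC (adjusted p = 0.012) and 4.14-fold lower in pDC (adjusted p = 0.00123). Nolc1, a chaperone of snoRNPs, read 7.84 and 6.96 in cDC and 7.42 and 7.48 in pDC, against 9.05 and 9.70 in CDP. Here cDC and pDC overlapped, and both were lower than CDP (differences -1.97 and -1.92, adjusted p = 0.00529 and 0.00469). Nucleophosmin (Npm1), an abundant nucleolar chaperone, had the smallest difference of the group, with 14.18 and 14.22 in cDC and 13.94 on both pDC arrays, against 14.95 and 14.90 in CDP. Its differences were -0.73 in cDC (SE 0.15, adjusted p = 0.00778) and -0.99 in pDC (SE 0.15, adjusted p = 0.00179). Nucleolin (Ncl) fell by 1.19 and 1.28, and the RNA helicase Ddx21 fell by 1.27 and 1.53, in cDC and in pDC.

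Of the small subunit factors, 9 of 9 fell in each cell type. Rrp12, which acts in maturation and export of pre-ribosomes, read 4.88 and 4.20 in cDC and 4.41 and 3.69 in pDC, against 7.04 and 7.65 in CDP. All 4 dendritic cell arrays were under 5, which gives a drop of at least 5.07-fold in each (adjusted p = 0.0013 in cDC and 0.000476 in pDC). Noc4l, a factor of small subunit assembly and export, read 8.67 and 8.52 in cDC and 9.06 and 8.25 in pDC, against 10.54 and 11.45 in CDP. The cDC values lay within the range of pDC, and the differences from CDP were -2.40 and -2.34 (SE 0.37 each). Heatr1 and Utp20, large scaffold proteins of the small subunit processome, differed by -2.15 and -1.78 in cDC and by -2.40 and -2.08 in pDC, and all passed. In cDC, Tsr1, a late factor of the small subunit, had the smallest difference of the 9, with 9.52 and 9.66 in cDC, against 10.30 and 10.87 in CDP (adjusted p = 0.011).

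Of the 11 large subunit factors, 8 fell in cDC and 10 in pDC, and in pDC they held the member with the largest difference, Wdr12. Wdr12 belongs to the PeBoW complex, with Pes1 and Bop1, which is needed to process the RNA of the large subunit. It read 7.98 and 7.66 in cDC and 5.82 and 6.53 in pDC, against 10.32 and 10.20 in CDP. The 3 groups did not overlap, and Wdr12 was 5.42-fold lower in cDC (adjusted p = 0.000575, SE 0.26 on the log2 scale) and 16.9-fold lower in pDC (adjusted p = 5.44e-05). Of its partners, Bop1 fell by 1.33 in cDC and by 1.30 in pDC, while Pes1 fell by 1.08 in pDC (adjusted p = 0.0274) and differed by -0.59 in cDC, which did not pass (adjusted p = 0.175). A second probe set of Bop1 averaged 5.54 in pDC and 4.76 in CDP without overlap, opposite in direction to the one used.

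Nop16, a nucleolar factor of the large subunit, read 9.15 and 8.88 in cDC and 7.92 and 8.03 in pDC, against 9.51 and 9.50 in CDP. Its difference did not pass in cDC (-0.49, SE 0.19, adjusted p = 0.0661) and was 2.90-fold lower in pDC (adjusted p = 0.000658). Noc2l passed in neither (differences -0.55 and -0.76, SE 0.31, adjusted p = 0.182 and 0.0759). The GTPase Gnl3 (nucleostemin), known from stem and progenitor cells, fell by 1.58 in cDC and by 1.62 in pDC. Rrs1, which brings the 5S particle into the large subunit in yeast, fell by 1.79 and by 2.00.

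Set against each other, cDC and pDC differed at 5 of 33 genes. All 5 were higher in cDC, where 12.8% of all genes tested were higher and 12.7% lower in cDC. The 5 were Polr1a (at least 2.72-fold, adjusted p = 0.0047), Polr1b (at least 1.80-fold, adjusted p = 0.0107), Wdr12 (3.13-fold, adjusted p = 0.004), Nop16 (2.06-fold, adjusted p = 0.00698) and Gar1 (1.61-fold, adjusted p = 0.0487). The share of members higher in cDC is near that of all genes. The estimate was above 0 for 27 of 33 genes, with a median difference of 0.29 against 0.00 over all genes. The count was 2 without the filter on low values, 2 with second probe sets, and 3 without pDC replicate 2.

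**Figure D2:**
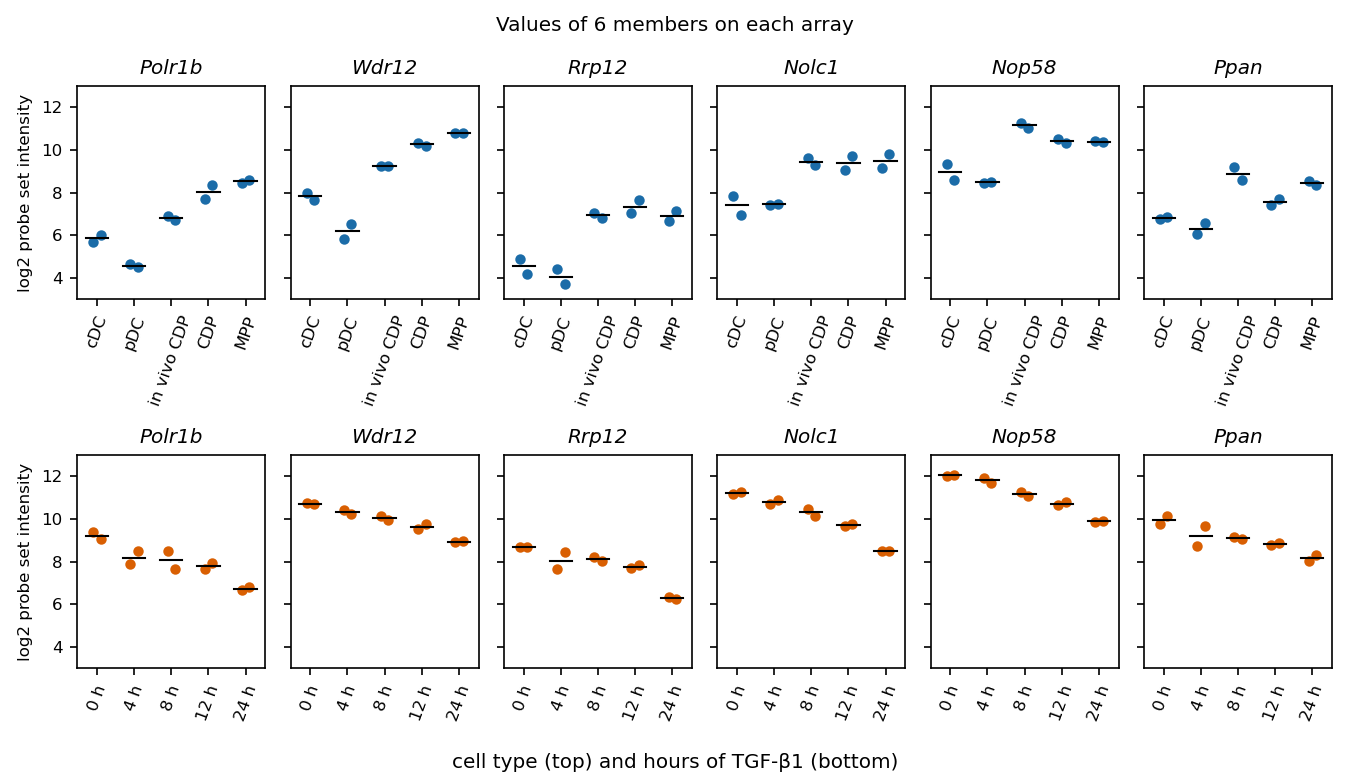
Points give the log2 intensity of 6 genes on each array and bars the mean of the 2 arrays, by cell type (upper row) and by hours of TGF-β1 (lower row). Each of the 6 genes is lower in cDC and pDC than in CDP, and among the times each is lowest at 24 h. Rrp12 in cDC and pDC and Polr1b in pDC lie under 5, which gives only bounds. Levels are not comparable between the rows.

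Between the cultured progenitors, CDP and MPP, no difference passed. None of the 33 genes was called, where 7.5% of all genes tested were called in limma, and 3 of 33 (against 20.1% of all genes) had an unadjusted p under 0.05. The median difference, CDP minus MPP, was -0.13, against 0.00 over all genes, and 26 of 33 estimates were below 0. For 14 of 33 genes both arrays of CDP lay below both arrays of MPP, which was so for 23.9% of all genes. For 1 gene both lay above. The member with the largest difference was Ppan, a factor of early large subunit assembly, which read 7.43 and 7.68 in CDP, against 8.56 and 8.36 in MPP. Its arrays did not overlap, but the difference of -0.90 (SE 0.23) did not pass (adjusted p = 0.0664). Gnl3 read 11.19 and 11.99 in CDP, against 12.23 and 12.37 in MPP, with a difference of -0.71 (adjusted p = 0.208). The count of lower members was 1 without CDP replicate 2 or without either pDC array.

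Other cell types were checked beside these comparisons. The summed level of 11 measured granulocyte markers (log2 of the summed intensities) was 8.06 to 8.10 in cDC, 7.87 to 8.11 in pDC, 15.4 to 15.8 in in vivo CDP, 14.3 to 14.9 in CDP and 16.9 to 17.1 in MPP. In cDC and pDC 1 of the 11 lay above 5, and the defining markers Mpo, Ltf and Camp lay between 2.55 and 2.80. Of the mast cell and basophil markers, 6 were measured, with a summed level of 6.68 to 7.48 in cDC, 5.10 to 5.15 in pDC, 7.42 to 7.55 in in vivo CDP, 7.07 to 7.49 in CDP and 12.2 to 12.3 in MPP. Of 5 tested, 4 were lower in CDP than in MPP, and against CDP 1 rose in cDC and 1 fell in pDC. The 7 measured monocyte and macrophage markers summed to 13.8 to 14.0 in cDC, 13.8 to 14.2 in pDC, 13.2 to 13.6 in in vivo CDP, 13.8 to 14.1 in CDP and 12.79 to 12.96 in MPP. Against CDP, 1 of the 7 was higher and 1 lower in cDC, 2 were higher and 4 lower in pDC, and 1 was higher and 3 lower in vivo, while 2 were higher in CDP than in MPP. Of the 5 MPP markers, 4 were higher in in vivo CDP than in CDP (median difference 2.27). Of the 11 granulocyte markers, 8 were higher and 1 lower there, where 27.6% and 19.5% of all genes were. Mpo is in both lists. In CDP against MPP, 10 of the 11 granulocyte markers were lower and 1 higher, where 3.52% and 3.99% of all genes were. The part of these cells in the results was not tested. Erythroid markers were under 5 on all 10 of these arrays. Of 6 measured T and NK cell markers, Cd3e, Cd8a and Ncr1 were too. A T and NK cell marker lay above 5 on both MPP arrays, pDC replicate 1 and in vivo CDP replicate 1. The 1 tested was lower in CDP than in MPP. At least 1 of 5 measured B cell markers lay above 5 on each array. The part of T, NK and B cells was not tested either.

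In vivo CDP differed from cultured CDP in both directions. Of 33 genes, 14 were lower and 3 higher in vivo, where 19.5% of all genes tested were lower and 27.6% higher. The median difference was -0.48, against 0.10 over all genes. RNA amount, extraction and labelling kits all differ between these groups, and cannot be told apart from the source of the cells. Gapdh read lower at its 5′ end in vivo, with a 3′ minus 5′ difference of 0.98 and 0.47 against -0.15 and 0.19 in CDP.

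Small subunit factors made up 6 of the 14 lower genes. Wdr75, a subunit of the complex that first binds the precursor RNA, read 9.65 and 9.11 in vivo, against 11.03 and 11.06 in CDP. The groups were separate, with a difference of -1.67 (SE 0.20, 3.17-fold lower, adjusted p = 0.00042). Noc4l and Gnl3 fell by 1.47 and 1.30. Polr1b read 6.91 and 6.71 in vivo, against 7.72 and 8.37 in CDP, and fell by 1.23 (SE 0.24, adjusted p = 0.00398). Among the snoRNP and scaffold proteins, Nhp2 read 11.80 and 11.56 in vivo, against 12.36 and 12.50 in CDP, and Ddx21 read 9.98 and 10.49, against 10.95 and 11.24. Nhp2 fell by 0.75 (adjusted p = 0.0133) and Ddx21 fell by 0.86 (adjusted p = 0.0318).

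The 3 genes higher in vivo were Ppan, Nop58 and Fbl. Ppan read 9.19 and 8.58 in vivo, against 7.43 and 7.68 in CDP, and was 2.51-fold higher (log2 difference 1.33, SE 0.26, adjusted p = 0.00407). Nop58 read 11.28 and 11.05 in vivo, against 10.50 and 10.31 in CDP, and rose by 0.76 (SE 0.25, adjusted p = 0.035). Fbl read 12.22 and 12.30 in vivo, against 11.67 on both CDP arrays, and rose by 0.59 (SE 0.18, adjusted p = 0.0255). These counts depended on single arrays. The lower genes numbered 6 without CDP replicate 2 and 4 without in vivo CDP replicate 2, and the higher genes numbered 1 without any one of the 4 arrays.

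In CDP given TGF-β1, the number of genes that fell grew with time. Of 34 genes, 0, 2, 11 and 31 were called against 0 h after 4, 8, 12 and 24 h, all of them lower. Among all genes tested, 0.079%, 0.348%, 1.68% and 8.42% were lower, and 0.569%, 1.2%, 3.68% and 10.8% higher, at the 4 times. At 4 h, 10 of 34 had an unadjusted p under 0.05, as did 8.77% of all genes. The median differences at these times were -0.36, -0.67, -0.93 and -1.74, while the median over all genes lay between 0.00 and 0.01 at these times. All 34 genes had their lowest mean at 24 h, and 31 had their highest at 0 h and 3 at 4 h. Both arrays lay below both arrays of 0 h for 22 of 34 genes at 4 h, 33 at 8 h and all 34 at 12 h and at 24 h, which was so for 17.7%, 24.5%, 25% and 30.5% of all genes. These comparisons share the 2 arrays of 0 h. With no untreated culture of 4 to 24 h analysed here, the effect of time in culture and that of TGF-β1 cannot be told apart.

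**Figure D3:**
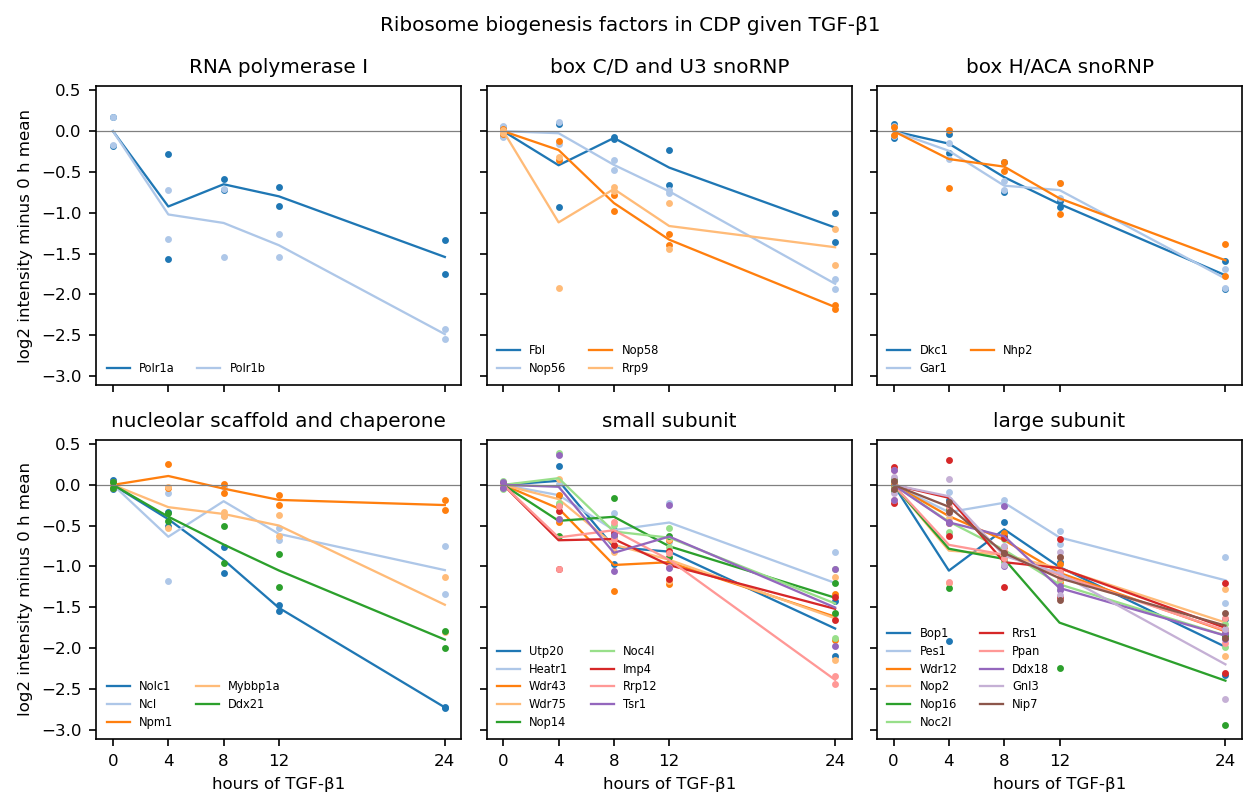
Lines join the means of 2 arrays, and points give each array, as log2 intensity minus the mean of that gene at 0 h, against hours of TGF-β1, in a panel for each role. Each gene is below 0 at 24 h, from -0.25 for Npm1 to -2.73 for Nolc1.

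The last of the 4 steps, which is also the longest, had the largest median. The median step between means was -0.36 over the first 4 h, -0.23 between 4 and 8 h, -0.32 between 8 and 12 h, and -0.74 between 12 and 24 h. All 34 means were lower at 24 h than at 12 h, and 19 of 34 were lower at each of the 4 steps. A test over all times (limma F-test) called 20 of 34 genes, where 9.73% of all genes were called. Against 4 h, 22 of 34 were lower at 24 h, where 5.23% of all genes were, with a median difference of -1.40.

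The 2 subunits of RNA polymerase I had a median difference of -2.01 at 24 h. Polr1b read 9.39 and 9.04 at 0 h, 7.90 and 8.49 at 4 h, 8.51 and 7.67 at 8 h, 7.68 and 7.96 at 12 h, and 6.67 and 6.79 at 24 h. Each later time lay below 0 h without overlap, and 24 h lay below all others. The difference at 24 h was -2.49 (SE 0.31, 5.61-fold lower, adjusted p = 0.00156), and 12 h passed too (adjusted p = 0.0431). Polr1a read 7.51 and 7.09 at 24 h, against 8.66 and 9.02 at 0 h (difference -1.54, SE 0.38, adjusted p = 0.0262).

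Of the box C/D proteins, Nop58 passed at 8 h. It read 12.02 and 12.08 at 0 h, 11.94 and 11.70 at 4 h, 11.26 and 11.08 at 8 h, 10.65 and 10.79 at 12 h, and 9.87 and 9.92 at 24 h. No 2 times overlapped, each lying below the time before it. The difference was -0.88 at 8 h (SE 0.16, adjusted p = 0.0387), -1.33 at 12 h (adjusted p = 0.00347) and -2.15 at 24 h (adjusted p = 0.000162). Fbl, which had not passed in cDC or pDC, read 11.38 and 11.74 at 24 h, against 12.69 and 12.80 at 0 h, and fell by 1.18 (SE 0.32, adjusted p = 0.0374). Rrp9 was measurable on these arrays. It read 7.90 and 8.34 at 24 h, against 9.53 and 9.56 at 0 h, a difference of -1.42 (SE 0.46) that did not pass (adjusted p = 0.0693).

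All 3 box H/ACA proteins fell at 24 h. Gar1 read 11.17 and 11.29 at 0 h, 10.89 and 11.09 at 4 h, 10.61 and 10.51 at 8 h, 10.60 and 10.42 at 12 h, and 9.54 and 9.31 at 24 h. Its arrays at 8 and 12 h overlapped, and 24 h was lowest, 3.50-fold below 0 h (adjusted p = 0.000386). Dkc1 and Nhp2 fell by 1.77 and 1.58 at 24 h.

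Nolc1 changed most among the 34 genes at 24 h. It read 11.17 and 11.28 at 0 h, 10.72 and 10.89 at 4 h, 10.47 and 10.15 at 8 h, 9.68 and 9.76 at 12 h, and 8.49 and 8.51 at 24 h. The times did not overlap and each was lower than the time before it. Nolc1 was 1.89-fold lower at 8 h (adjusted p = 0.0403), 2.84-fold at 12 h (adjusted p = 0.0026) and 6.62-fold at 24 h (SE 0.16 on the log2 scale, adjusted p = 6.48e-05). Npm1 stood at the other end, with 13.73 and 13.85 at 24 h, against 14.07 and 14.01 at 0 h, and did not pass (difference -0.25, SE 0.16, adjusted p = 0.356). Ncl, too, did not pass (difference -1.04, SE 0.35, adjusted p = 0.0754). Ddx21 and Mybbp1a fell by 1.90 and 1.47.

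Small subunit factors fell in 9 of 9 cases at 24 h, and none passed before. Rrp12 read 8.68 and 8.69 at 0 h, 7.65 and 8.43 at 4 h, 8.24 and 8.03 at 8 h, 7.68 and 7.85 at 12 h, and 6.34 and 6.25 at 24 h. The arrays of 4 h overlapped with those of 8 and 12 h, and 24 h was apart, 5.24-fold below 0 h (SE 0.25 on the log2 scale, adjusted p = 0.000652). The other 8 fell by 1.20 (Heatr1) to 1.76 (Utp20).

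All 11 large subunit factors fell at 24 h, 4 of them at 12 h too (Wdr12, Noc2l, Ddx18 and Nip7). Nop16 read 9.95 and 10.09 at 0 h, 8.75 and 9.72 at 4 h, 9.09 and 9.13 at 8 h, 7.78 and 8.88 at 12 h, and 7.07 and 8.17 at 24 h. Replicate 1 of 4, 12 and 24 h was the lower array each time, and the difference at 24 h was -2.40 (SE 0.48, adjusted p = 0.0108). Wdr12 read 8.90 and 8.96 at 24 h, against 10.74 and 10.71 at 0 h, and was 3.47-fold lower (adjusted p = 0.000312). Gnl3 and Ppan fell by 2.20 and 1.78.

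The 5′ end of Gapdh was dim on replicate 1 of 4, 12 and 24 h, where the 3′ probe set exceeded it by 2.09, 2.61 and 2.78, against 0.01 to 0.10 on the other 7 arrays. Without these 3 arrays the lower genes numbered 22 after 8 h, 28 after 12 h and 33 after 24 h, where the lower share of all genes also grew, to 4.13%, 5.35% and 15.2%. The count at 4 h was 7 without 4 h replicate 2, where 7.07% of all genes were lower, and that at 8 h was 0 without any one array of 0, 8, 12 or 24 h. The count at 24 h was 19 without 0 h replicate 1 and 18 without 0 h replicate 2. At 12 h it was 2 without 0 h replicate 1, 1 without 0 h replicate 2, 2 without 12 h replicate 1 and 4 without 12 h replicate 2, and it was 17 without either array of 4 h. For 24 h against 4 h it was 14 without 24 h replicate 2. Beside these differences, 8 of 8 tested cDC markers were higher at 24 h than at 0 h (median difference 2.16 with values under 5 set to 5). So were 3 of 7 tested pDC markers and 3 of 4 CDP markers, with none lower, while of 5 MPP markers 1 was higher and 2 were lower, and of 7 monocyte and macrophage markers 1 was higher and 1 lower. The summed level of the granulocyte markers was 11.58 and 13.03 at 24 h, against 13.58 and 13.82 at 0 h. The part of these cells in the results was not tested.

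The lower levels in dendritic cells and after TGF-β1 came from separate arrays with no shared control. Of the 29 genes lower in cDC than in CDP, 27 (93.1%) were lower at 24 h too, against 27.5% of all genes lower in cDC. Of the 31 members lower at 24 h and tested in both, 87.1% were lower in cDC, against 73.3% of all genes lower at 24 h. For pDC these shares were 93.5% and 93.5% among the members, against 25.7% and 73.6% among all genes. Of the 33 members tested in both, 29 were lower in cDC, 31 in pDC and 31 at 24 h. Shares this high among the members follow from those counts alone, and the overlap was not tested. Pearson's r over the 33 genes was 0.37 for cDC and 0.36 for pDC, against 0.53 and 0.49 over all genes, given as a description, since genes share arrays and are not independent.

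**Figure D4:**
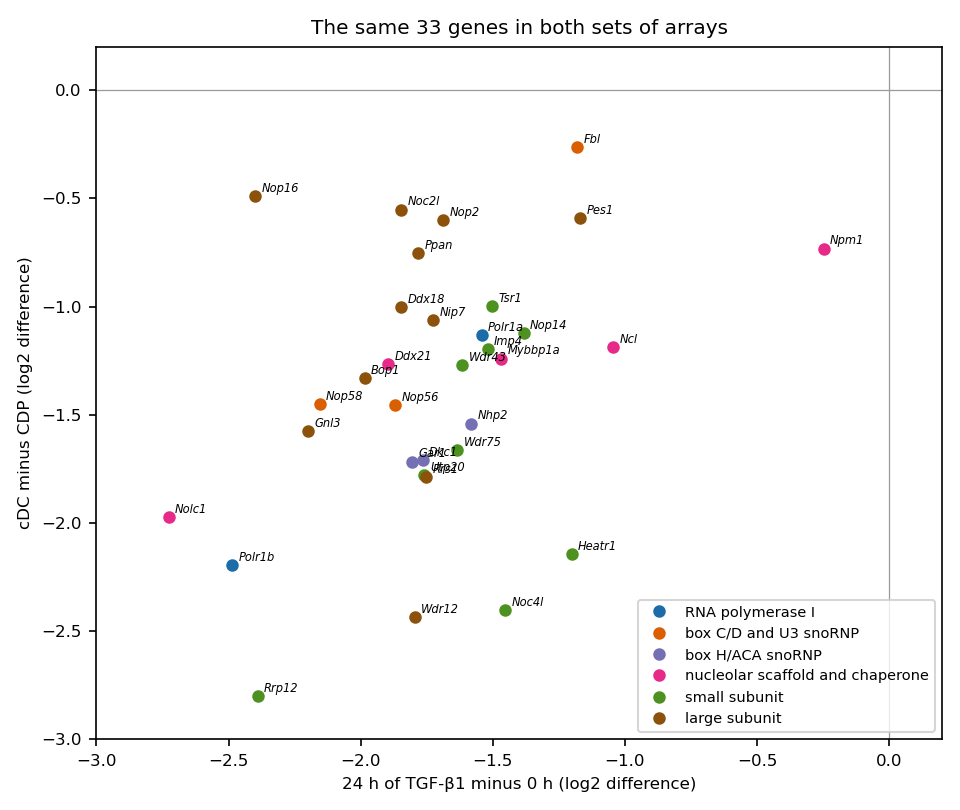
Each point is 1 of 33 genes, with the log2 difference of 24 h minus 0 h of TGF-β1 on the horizontal axis and that of cDC minus CDP on the vertical axis, coloured by role. All points lie below 0 on both axes, with Rrp12 drawn at its deposited values, which in cDC lay under 5 and give only a bound, Nolc1 lowest at 24 h (-2.73) and Npm1 the nearest to 0 at 24 h (-0.25).

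Other factors of the pathway, 129 genes in 5 lists, of which 126 were measured, mostly went the same way. Of 122 tested, 76 were lower and 1 higher in cDC (median difference -0.82), and 84 were lower and 2 higher in pDC (median -0.91). Among all genes tested, 29.3% were lower and 18.7% higher in cDC, and 31.6% lower and 21.7% higher in pDC. At 24 h, 61 of 126 were lower and 2 higher (median -1.06), and 19 were lower at 12 h. All genes tested were lower in 8.42% and higher in 10.8% of cases at 24 h, and lower in 1.68% at 12 h. In vivo CDP had 45 of 122 lower and 11 higher than cultured CDP, where 19.5% of all genes were lower and 27.6% higher. Examples are Rrp1b, a nucleolar factor (difference from CDP -2.16 in cDC and -3.24 in pDC, and -2.63 at 24 h), and Dis3, a nuclease of the RNA exosome (-2.08, -2.55 and -2.02). Urb2 fell by 2.24 in cDC and by 2.65 in pDC, and Znhit3, which acts in snoRNP assembly, fell by 2.12 and by 2.22. The list of other polymerase I genes fell less often. Of its 13 tested, 4 were lower in cDC, 5 lower and 1 higher in pDC, and 1 lower at 24 h, near the shares over all genes. The 1 lower at 24 h was the subunit Polr1e, which fell by 2.19 there and by 1.49 in pDC. Called higher among the 5 lists were Sdad1 in cDC (by 0.88), Taf1a and Nop53 in pDC (by 0.66 and 0.88), and Nop53 and Zfp622 at 24 h (by 0.79 and 0.89).

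Few proteins of the finished cytoplasmic ribosome were called. Of 79, 44 were measured and 43 tested. The median level of the 44 on an array was 13.70 to 14.66, against 8.12 to 10.77 for the biogenesis factors. The part of this high level in the results was not tested. In cDC 1 was lower and 2 higher (median difference 0.10), in pDC 3 were lower and 2 higher (median 0.00), and at 24 h 1 was lower (median 0.00). Over all genes tested, 29.3%, 31.6% and 8.42% were lower in these comparisons, and 18.7%, 21.7% and 10.8% higher. Rpl14 fell by 1.30 in cDC and by 2.35 in pDC, and Fau, whose product is cleaved to a small subunit protein, rose by 1.26 and 1.32. Rpl12 fell by 1.45 at 24 h.

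**Figure D5:**
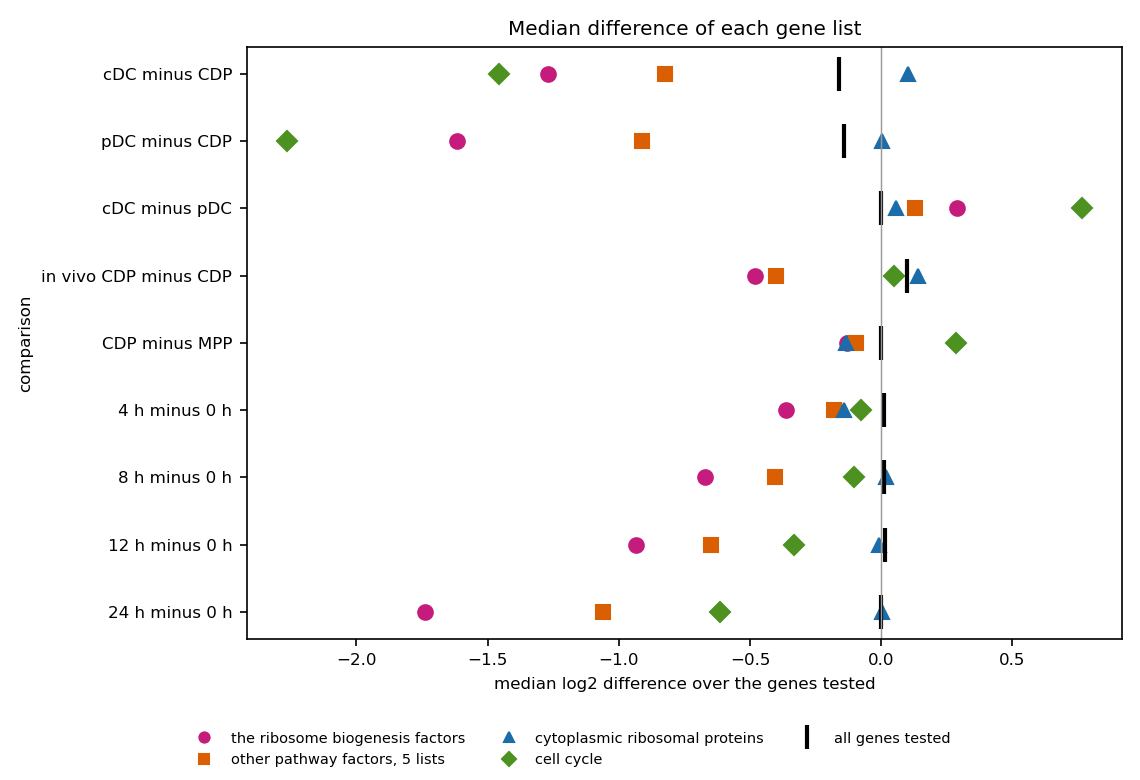
Symbols give the median log2 difference of the genes tested in each list, and the black bar that of all genes tested, for 9 comparisons (first group minus second). The biogenesis factors lie at -1.27 and -1.62 in cDC and pDC and at -1.74 at 24 h, and ribosomal proteins lie between -0.14 and 0.14.

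Cell cycle genes were lower in dendritic cells as well. Of 23 measured, 22 were lower in cDC (median difference -1.46) and 22 in pDC (median -2.27), and 5 were lower at 24 h (median -0.61). The shares of all genes lower were 29.3%, 31.6% and 8.42%. Against pDC, 10 were higher in cDC (median 0.77), where 12.8% of all genes were. In vivo CDP had 1 higher and 3 lower than cultured CDP, where 27.6% of all genes were higher and 19.5% lower. The part of cell division in the biogenesis factors' differences was not tested.

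Myc itself was higher in cDC and lower in pDC than in CDP. It read 9.51 and 9.14 in cDC and 3.42 and 3.44 in pDC, against 8.39 and 7.83 in CDP. The groups did not overlap, with Myc 2.32-fold higher in cDC (adjusted p = 0.0183) and at least 8.62-fold lower in pDC (adjusted p = 7.12e-05) than in CDP. It read 10.2 and 10.1 in in vivo CDP, 4.04-fold above CDP (adjusted p = 0.00104), and 11.1 and 10.3 in MPP, so that CDP lay 6.17-fold below MPP (adjusted p = 0.00365). In the TGF-β1 series it read 11.5 and 11.3 at 0 h, 9.36 and 10.2 at 4 h, 10.5 and 9.78 at 8 h, 9.11 and 9.30 at 12 h, and 7.94 and 8.50 at 24 h. Myc passed at 12 h (4.64-fold lower, adjusted p = 0.012) and at 24 h (9.16-fold lower, adjusted p = 0.000824).

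Some relatives of Myc moved as well, among them Mycl and Mxd4. Mycl, a second MYC family member, was at least 13.1-fold higher in cDC (adjusted p = 1.83e-05) and at least 17.8-fold higher in pDC (adjusted p = 8.16e-06) than in CDP, where both arrays lay under 5, and it rose by 1.82 at 24 h. Mxd4, which competes with MYC for their shared partner MAX, was higher by 1.69 in cDC and by 2.74 in pDC. It rose at 4, 8, 12 and 24 h by 1.83, 2.37, 3.19 and 4.03. Of 10 genes in the list of MYC and its partners, 9 were tested in dendritic cells. In cDC 3 were higher and none lower, where 18.7% and 29.3% of all genes were. In pDC 2 were higher and 1 lower, where 21.7% and 31.6% of all genes were. The other 6 of 9 were not called in either cell type. In vivo CDP had 4 of 9 higher than CDP and none lower, where 27.6% and 19.5% of all genes were. At 24 h, 3 of 10 were higher and 1 lower, where 10.8% and 8.42% of all genes were.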

How the data were processed

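Per the labels, total RNA of 20 samples in 10 groups of 2 was hybridised to Affymetrix arrays. The authors deposited log2 intensities of 45101 probe sets, and the submitters' processing notes name GCRMA without a version. A platform annotation gave 34958 probe sets 1 symbol. Genes above 5 on at least 2 arrays of a fit were tested in R 4.3.3 by limma 3.58.1 (eBayes after lmFit, two-sided, Benjamini-Hochberg over all genes tested, threshold 0.05), in fits of the 8 one-cycle arrays, these with in vivo CDP, and the 10 TGF-β1 arrays. A fold is given as "at least" where all arrays of the lower group lay under 5, which were then set to 5. The number of arrays limits the precision. Members, lists and tests were chosen with earlier results of these data known. Values on every array are given for the member of each role group with the largest difference in each fit, those called against the majority, and the 3 highest and 3 lowest by mean; of other lists, up to 2 called genes in each direction, and a few more chosen after their values were seen. The fits were also run on simulated data with independent noise on each array, as a check of the code. That run does not bear on the calls made here. Figures were drawn with matplotlib 3.10.9.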

Additional observations from a re-analysis of the deposited data

How the results depend on the processing

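No median difference of the members shifted by more than the spread between replicates under the alternatives run. That of CDP against MPP (-0.13) is smaller than this spread, so its direction is not settled by this check. No member named by the fixed rule reversed, but some of these members were no longer called in some of the alternatives. Bop1, outside that rule, had an opposite direction in pDC on a second probe set. Left-out arrays gave these ranges of members called lower: 0 to 1 for CDP against MPP, 23 to 28 for cDC, 30 to 31 for pDC, 4 to 14 for in vivo CDP, 0 to 7 at 4 h, 0 to 2 at 8 h, 1 to 17 at 12 h, 18 to 33 at 24 h and 14 to 26 for 24 h against 4 h. Members called higher ranged from 3 to 6 in cDC against pDC and from 1 to 3 in vivo. The 7 at 4 h came without 4 h replicate 2, the 17 at 12 h without either 4 h array, and the 14 without 24 h replicate 2. The 1 lower in CDP came without CDP replicate 2 or either pDC array. The 2 genes at 8 h were lost (0 called) without any one array of 0, 8, 12 or 24 h. With no filter on low values, 2 members were higher in cDC than in pDC and 8 lower in vivo. Second probe sets gave 2 higher in cDC than in pDC, 0 lower at 8 h and 4 at 12 h, and eBayes with trend and robust gave 0 at 8 h. With the Gapdh difference as a covariate, 16 were lower at 8 h and 24 at 12 h, and without the 3 arrays of low 5′ signal 22 and 28. Fits of 4 arrays gave 22 at 8 h, 19 at 12 h and 0 for 24 h against 4 h. Same-numbered arrays correlated in their deviations from group means at 0.27 to 0.85 in the TGF-β1 series and at -0.06 to 0.58 in the one-cycle arrays, and with 2 numbers only and no shared source in the labels they were not taken as pairs. With the replicate number as a block, 8 were lower at 8 h, 21 at 12 h and 33 at 24 h, and no other count moved by over 1.5 times. Over all genes, centring each array on its median made 42.1% of calls at 12 h lower in place of 31.4%, and 60.5% of calls in cDC against pDC in place of 49.8%, and quantile normalization made 51.5% of calls in vivo lower in place of 41.4%. Centring changed the median difference of all genes in pDC against CDP to 0.02, and quantile normalization that in vivo to -0.03. The causes were not tested.

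The number of arrays, 2 in each group, limits what could be called, and values under 5 give only bounds. Of the other probe sets above 5 of called members, 25 of 25 had the same direction in cDC, 26 of 28 in pDC, 15 of 16 in vivo and 30 of 30 at 24 h.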

Other observations

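Rrp9 lay between 2.81 and 4.51 on the 10 arrays of cDC, pDC, in vivo CDP, CDP and MPP and between 7.62 and 9.56 on the 10 arrays of the TGF-β1 series, which include untreated CDP; labelling and processing differ between these sets of arrays, and no comparison was made.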
